A study of Mus musculus with 15 samples.

Results

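The comparison described here sets ventricles labelled PAS knockout against ventricles labelled PAS control, at embryonic day 11.5 in the mouse. It uses 7 of the 15 RNA-seq libraries of the series, chosen by the genotype in their titles: 4 PAS knockouts and 3 PAS controls. The animals are of the C57BL/6 strain. The knockouts carry Atf4 alleles in which loxP sites flank the polyadenylation signal, written Atf4fl(PAS)/fl(PAS), together with Xmlc2-Cre, a Cre active in cardiomyocytes. The controls are labelled only as control, so whether they carry the floxed alleles or the Cre is not given in the sources used here. Cells of the ventricle other than cardiomyocytes keep the signal by design, and in whole tissue fewer cells of a type and less RNA per cell cannot be told apart. The other 8 libraries, labelled CDS knockout and CDS control (4 each), come from a second line in which loxP sites flank exons 2 and 3, and are used only for the comparison of lines at the end. The embryos were untreated, and all libraries carry the same batch label. Whereas the design text speaks of 4 replicates for each genotype, the PAS controls analysed here are 3.

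ATF4 is a transcription factor of the basic leucine zipper (bZIP) class and the main effector of the integrated stress response. Stress kinases phosphorylate the initiation factor eIF2, general translation drops, and upstream open reading frames in the Atf4 message let its coding sequence be translated more. ATF4 pairs with other bZIP proteins, among them those of the C/EBP family, and binds C/EBP-ATF response elements near genes for amino acid synthesis, amino acid import and tRNA charging. A polyadenylation signal lies near the end of a gene, where the cleavage and polyadenylation machinery binds it, cuts the transcript and adds the poly(A) tail. The tail serves nuclear export, stability and translation of a message. The comparison asks what becomes of Atf4 RNA and of the genes ATF4 is known to switch on once the signal is floxed in heart muscle.

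A candidate for the element named in the labels can be read from the Atf4 transcript model. Whether it is the stretch between the loxP sites was not examined. The last 30 bases of the Atf4 messenger RNA model (Atf4-201, GENCODE release M21, GRCm38) hold 1 AATAAA hexamer, the usual core of a polyadenylation signal, shown in capitals with 19 bases after it.

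Atf4-201 end: gctgtAATAAAttattttgtagtgaaagta

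The other element of interest is the ATF4 binding motif, searched as TGATGNAA on both strands of the RefSeq promoter windows, from 250 bases before to 50 after the start of a gene (GRCm38.p6). Shown are 30 bases around the match, in capitals, for 4 of the 12 lower genes named below, with Jdp2 from the list of stress outputs and Asns, a much studied ATF4 target given outside the naming rule. The matches begin 7 bases from the start site in Iars, 3 in Yars, -103 in Pycr1, -38 in Polr2m, -33 in Jdp2 and -23 in Asns.

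Iars chr13:49682126-49682155, plus strand: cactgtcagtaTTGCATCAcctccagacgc
Yars chr4:129189895-129189924, plus strand: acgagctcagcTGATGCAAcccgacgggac
Pycr1 chr11:120643833-120643862, minus strand: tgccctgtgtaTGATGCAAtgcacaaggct
Polr2m chr9:71486003-71486032, minus strand: cgccttggcggTGATGTAActtccgcccct
Jdp2 chr12:85599372-85599401, plus strand: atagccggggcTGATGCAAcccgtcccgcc
Asns chr6:7693214-7693243, minus strand: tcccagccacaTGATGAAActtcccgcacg

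Total counts ran from 22623499 to 29315724 per library. The labels conflict on the source of the RNA, since the extraction protocol names cultured cortical neurons and ribosomal RNA depletion, whereas the design text and tissue labels name ventricle, with a stranded poly(A) kit. The libraries held heart RNA. Myh7, a ventricular myosin heavy chain, lay between 6125 and 6985 CPM (counts scaled to library size), and the sarcomere gene Tnnt2 between 3471 and 4398 CPM. Of 8 cortical neuron markers, Neurod6 and Neurod2 had 0 counts in all 7 libraries, Tbr1 and Rbfox3 had at most 8 and 10 counts, and Slc17a7 and Snap25 at most 17 and 28. The more general neuronal genes Map2 and Tubb3 were detected, at 3.76 to 7.61 and 4.46 to 8.85 CPM. The Y-linked gene Ddx3y was at 72.8 to 89.4 CPM throughout.

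Atf4 itself was higher under the knockout label. Its counts under the PAS knockout label were 8048, 8212, 6800 and 7595, while the control libraries of that line counted 2686, 2110 and 2283. As normalised levels these are 304, 293, 289 and 260 CPM against 99.1, 92.5 and 100 CPM. Every knockout thus lay well above every control, and the means were 287 ± 18.8 CPM (SD, n = 4) and 97.3 ± 4.24 CPM (SD, n = 3), a ratio of 2.94. On the log2 scale the change was 1.56, with an SE of 0.06 and an adjusted p of 2.1e-09 in edgeR's quasi-likelihood test (Benjamini-Hochberg adjustment). Because the targeted gene went up, the groups are called throughout by what the labels say.

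The gene (ENSMUSG00000042406.9) lies on the plus strand at chr15:80139385-80141742 (GRCm39). The exons of its deposited annotation merge into 1 block of 2358 bases, so that a fragment from an intron is counted as well as one from a spliced message. The counts therefore do not tell spliced from unspliced RNA, nor RNA that ends at the usual site from RNA that does not. Per length of the gene model, Atf4 stood at 41.3 ± 1.8 FPKM (SD, n = 3) in the controls, behind Jund at 49.6 and Nfe2l1 at 44.2 FPKM among 39 bZIP genes. The gap between Nfe2l1, with an SD of 2.34 FPKM, and Atf4 is close to their spread. In the knockouts Atf4 stood first, at 122 ± 7.95 FPKM (SD, n = 4), with Jund at 45.4 and Nfe2l1 at 43.9 FPKM.

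Atf4 was the only one of 18526 tested genes to pass the adjusted threshold of 0.05 (1 gene higher, 0.0054% of those tested, and 0 lower). At an unadjusted p under 0.05 there were 497 genes (2.68%), where 926 would be expected if no gene differed. Over the same genes there were 216 with the replicate number as a block. There were 908 with the main direction of variation within groups, derived from the same libraries and described below, as a covariate. With a count below the expected one, genes not called are not thereby shown to be unchanged. The median log2 change of all genes was -0.001, with quartiles of -0.07 and 0.07. DESeq2 called Atf4 and 2 lower genes, Cars and Tmem100, and limma-voom called Atf4 alone. None of the genes described from here on passed edgeR's adjusted threshold, so they are given as values, with groups said to be apart where every knockout lay on the same side of every control. By that measure 428 genes were lower in all knockouts (2.31% of those tested) and 410 were higher (2.21%). A gene list of the size used here can hold such a member at those shares alone.

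**Figure D1:**
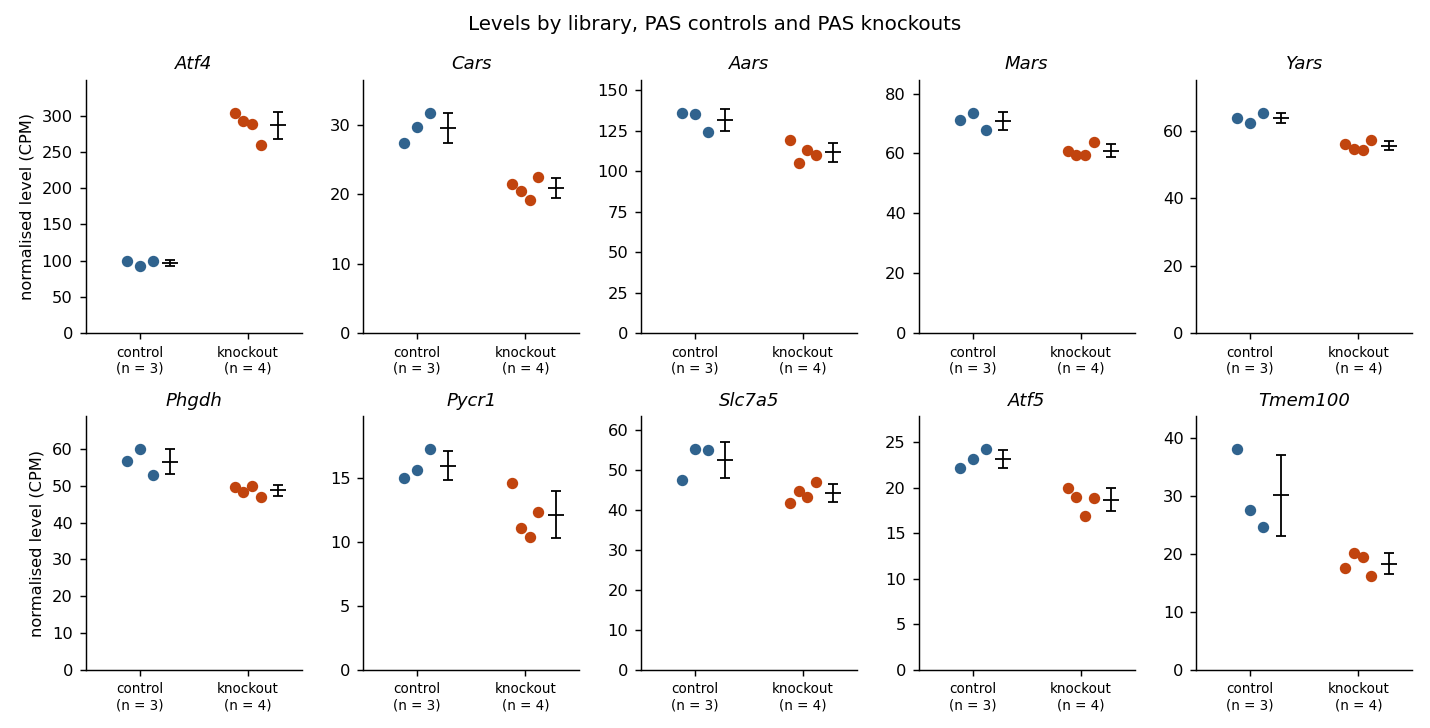
Normalised level (CPM, linear axis from 0) of Atf4, 8 genes of amino acid supply and stress and Tmem100 in each library. Points are libraries (3 controls, 4 knockouts), and the bar beside them is the mean with its SD. Atf4 knockouts lie between 260 and 304 CPM, above all controls. The 9 other genes are from the 12 lower genes named below, which were chosen for groups apart. By that choice every knockout lies below every control in their panels.

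Cytosolic aminoacyl-tRNA synthetases load amino acids onto tRNA for translation, and many are known ATF4 targets. Of the 20 measured, 14 had a negative log2 change, against 50.4% of all genes. In 7 of them all knockouts were lower than all controls, and in 0 were they higher. The median log2 change was -0.07. Cars, the cysteine enzyme, had 21.5, 20.5, 19.1 and 22.4 CPM in the knockouts and 27.3, 29.6 and 31.7 CPM in the controls. Its groups were far apart for their spread, with a log2 change of -0.50 ± 0.08 (SE), yet edgeR's adjusted p was 0.116. DESeq2 gave an adjusted p of 0.00209 and a fit of all 15 libraries 0.00203. EdgeR with no filter on low counts, over 43146 genes, gave 7.17e-06. Aars, for alanine, had 119, 105, 113 and 110 CPM against 136, 135 and 124 CPM, a log2 change of -0.23 ± 0.05 (SE). Mars, for methionine, had 60.9, 59.6, 59.5 and 63.9 CPM against 71.1, 73.6 and 67.8 CPM. Yars, for tyrosine, had 56.2, 54.7, 54.3 and 57.2 CPM against 63.7, 62.5 and 65.4 CPM. The knockouts of both enzymes spanned a narrow range below the controls, with log2 changes of -0.22 ± 0.05 and -0.20 ± 0.05 (SE). Iars, for isoleucine, had 148, 139, 142 and 144 CPM against 160, 163 and 158 CPM. Nars, for asparagine, had 105, 115, 112 and 109 CPM against 128, 123 and 117 CPM. Their log2 changes were smaller, -0.16 ± 0.04 and -0.15 ± 0.05 (SE). The seventh was Lars, for leucine, with 90, 91.7, 89.2 and 84.6 CPM against 98.5, 92.9 and 93.5 CPM, and it is named outside the rule.

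The mitochondrial synthetases do the same work inside mitochondria and are encoded by other genes. Of 17 measured, 5 were negative, and groups were apart in 0. Their median log2 change was 0.05. Iars2 and Lars2, the most abundant, had log2 changes of -0.03 ± 0.05 and -0.11 ± 0.24 (SE). Lars2 varied widely between libraries, from 275 to 519 CPM, and its sign turned when knockout 3 or control 1 was left out.

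Enzymes that make serine and run the one-carbon cycle had 9 of 12 members negative and a median of -0.02. Groups were apart, lower, in 2. Phgdh, which opens serine synthesis from a glycolytic intermediate, had 49.6, 48.3, 50.1 and 47 CPM in the knockouts and 56.8, 59.9 and 53 CPM in the controls, a log2 change of -0.21 ± 0.06 (SE). Mthfd2, a mitochondrial folate enzyme, had 29.6, 28.7, 31.6 and 27.5 CPM against 31.9, 33.8 and 35.5 CPM, and the highest knockout came within a small margin of the lowest control.

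Among enzymes of asparagine, proline and glutamate, 11 of 15 were negative, with a median of -0.07, and groups were apart, lower, in 1. That gene was Pycr1, which completes proline synthesis, at 14.6, 11.1, 10.4 and 12.3 CPM against 15, 15.6 and 17.2 CPM (log2 change -0.40 ± 0.11, SE). Asns, which makes asparagine, had 20.5, 15.2, 17.9 and 18.7 CPM against 24.9, 25.9 and 18.6 CPM. Its log2 change was -0.36 ± 0.12 (SE), but control 3 lay among the knockouts. Of 11 transsulfuration and glutathione genes tested, 7 were negative, and the median was -0.03. The 1 with groups apart was Chac1, which degrades glutathione. It was near the limit of detection, at most 0.59 CPM in any library, so its log2 change of -1.12 ± 0.51 (SE) is imprecise.

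Amino acid transporters had 12 of 17 members negative and a median of -0.05. Slc7a5 and Slc3a2, which code for the light and heavy chains of the same importer of large neutral amino acids, were the 2 with groups apart, both lower. Slc7a5 had 41.8, 44.8, 43.2 and 47 CPM in the knockouts against 47.4, 55.1 and 54.9 CPM in the controls. The gap for Slc7a5 was set by knockout 4 and control 1, which almost met. Slc3a2 had 53.5, 49.9, 50.5 and 50.6 CPM against 55.1, 57.4 and 54.5 CPM, a log2 change of -0.12 ± 0.05 (SE) beside -0.24 ± 0.06 for its partner.

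Other outputs of ATF4 in stress had 16 of 20 tested members negative and a median of -0.10. Groups were apart, lower, in 5 of them: Atf5, Ddit3, Jdp2, Xpot and Gadd45a. Atf5, a bZIP factor whose message is translated under stress as that of Atf4 is, had 20, 19, 16.9 and 18.9 CPM against 22.2, 23.1 and 24.2 CPM (log2 change -0.31 ± 0.08, SE). Ddit3 codes for CHOP, a bZIP partner linked to cell death in long stress, and had 9.93, 11.6, 10.4 and 8.83 CPM against 11.8, 11.9 and 13.4 CPM. Jdp2, a bZIP repressor, had 7.62, 7.64, 6.98 and 6.64 CPM against 9.22, 8.94 and 9.45 CPM (log2 change -0.35 ± 0.11, SE). Of these 3 regulators, Jdp2 and Atf5 had clear gaps between groups and Ddit3 a small one. Gadd45a, a growth arrest gene, was low in all libraries, at 1.21, 1.07, 1.36 and 1.3 CPM against 2.07, 1.93 and 1.98 CPM (log2 change -0.69 ± 0.22, SE). Xpot, the tRNA exporter, differed little, by a log2 change of -0.08 ± 0.04 (SE). Trib3, a pseudokinase often used as a readout of ATF4 and named outside the rule, had 1.36, 1.64, 2.59 and 1.23 CPM against 2.51, 1.18 and 2.33 CPM, so its groups overlapped.

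The 6 lists of ATF4 outputs together (cytosolic synthetases, the 3 groups of enzymes, transporters and stress outputs) held 95 tested genes of 98. Of these 69 were negative (72.6%, against 50.4% of all genes), 18 were lower in all knockouts (18.9%, against 2.31%), and 0 were higher in all knockouts (against 2.21%). Their median log2 change was -0.06. These lists were drawn up from known targets with earlier results of these libraries known, so the counts are a description. Promoter windows were found for 77 of the 98 genes, and 18 of those hold the motif (23.4%), beside 2.76% of the 11794 tested genes that have a window. The share was 5 of 13 cytosolic synthetases (38.5%) and 0 of 14 mitochondrial ones. It was 7 of 21 stress outputs, 3 of 12 enzymes of asparagine, proline and glutamate, 2 of 12 transporters and 1 of 9 transsulfuration and glutathione genes. Serine and one-carbon enzymes, which include Phgdh and Mthfd2, held it in 0 of 10. Over all genes, the motif was in 14 of the 257 with a window that were lower in all knockouts (5.45%). It was in 8 of the 253 that were higher (3.16%). The 257 include 13 genes of the 6 ATF4 lists, and these 13 hold 6 of the 14 matches. A match is a string of letters and not a measured binding site.

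**Figure D2:**
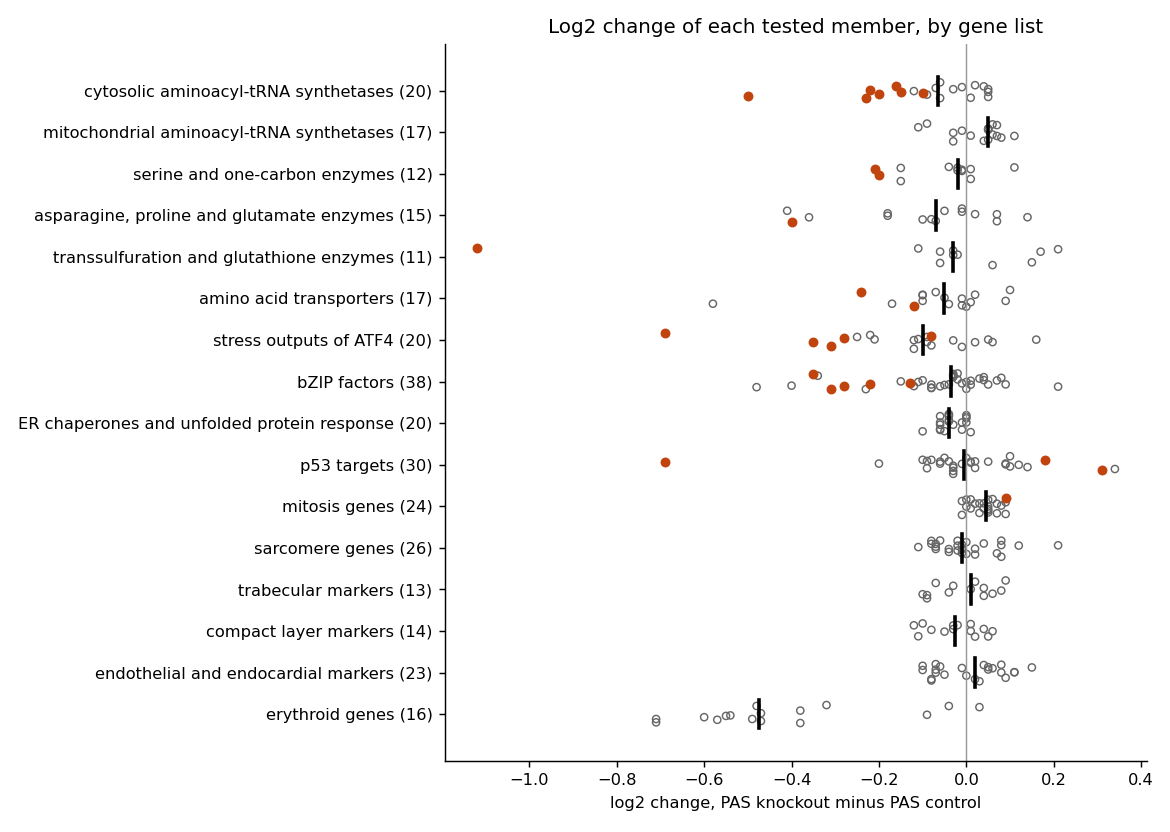
Log2 change (PAS knockout minus PAS control, horizontal axis) of every tested member of 16 of the gene lists, with the number tested in brackets. Filled points are genes whose groups do not overlap, open points the rest, and black bars the list medians. Filled points of the cytosolic synthetases all lie left of 0, and those of the mitochondrial synthetases are lacking. Atf4 is in none of these lists.

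The bZIP factors other than Atf4 had 26 of 38 members negative and a median of -0.04. Groups were apart, lower, in 5: Atf5, Ddit3 and Jdp2, described above, with Jund and Maf. Jund, an AP-1 subunit, had 76.3, 75.8, 77 and 73.6 CPM against 77.1, 86.3 and 84.6 CPM, where the highest knockout and lowest control nearly touched. Maf, a large Maf factor, had a log2 change of -0.22 ± 0.11 (SE), which was -0.10 without control 3, the highest library at 13.2 CPM. Upstream of ATF4, the eIF2 kinases and eIF2 factors had 9 of 17 negative and a median of -0.01. Eif2s2, the beta subunit of eIF2, was the 1 with groups apart, at 151, 152, 156 and 153 CPM against 166, 160 and 170 CPM. The factors that degrade ATF4 protein had 8 of 12 negative and groups apart in 0.

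Genes that act on RNA ends are the next group. Polyadenylation factors had 10 of 21 negative and a median of 0.002, with groups apart only in Papolg, a poly(A) polymerase, at 21.8, 21.4, 21.1 and 22.6 CPM in the knockouts and 20.1, 20.3 and 21 CPM in the controls. RNA decay factors had 12 of 24 negative. Upf1, the helicase of nonsense-mediated decay, was lower in all knockouts. So was Gadd45a, the growth arrest gene described above, which that list also holds. The decapping factor Dcp1a and Cnot1, the scaffold of the CCR4-NOT deadenylase, were higher in all. The log2 changes were -0.09 ± 0.05 for Upf1, 0.14 ± 0.05 for Dcp1a and 0.05 ± 0.04 (SE) for Cnot1. All tested genes had 2.31% lower and 2.21% higher in all knockouts, so lists of this size can hold such members at those shares alone.

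Of the 12 lower genes with the smallest p and groups apart, 9 were in the ATF4 lists, namely Cars, Aars, Mars, Yars, Atf5, Phgdh, Slc7a5, Iars and Pycr1. Those lists hold 95 of the 18526 tested genes. They were drawn up with earlier results of these libraries known, so this count too is a description. The other 3 were Tmem100, Drap1 and Polr2m. Tmem100, a membrane protein of endothelium induced by BMP9 and BMP10 through the receptor ALK1, had 17.6, 20.1, 19.4 and 16.1 CPM in the knockouts against 38, 27.6 and 24.7 CPM in the controls. Its log2 change of -0.72 ± 0.15 (SE) came with controls that varied more than the knockouts, control 1 being the highest. DESeq2 gave it an adjusted p of 0.00292 and edgeR 1, and limma-voom did not call it. With no filter on low counts, over 43146 genes, edgeR gave 7.76e-14. There the same Tmem100 counts had an SE of 0.08 in place of 0.15, so that value rests on the setting. The list of BMP-ALK1 signalling genes had 10 of 22 members negative, a median of 0.01, and groups apart in 1, Tmem100 itself. Endothelial and endocardial markers had 10 of 23 negative and groups apart in 0, and their summed level was 2475 to 2644 CPM in the knockouts and 2298 to 2662 CPM in the controls. Drap1, a repressor of transcription initiation, had 75.8, 74.2, 73.8 and 72.5 CPM against 83.3, 84.4 and 83.8 CPM. Polr2m, a subunit that associates with RNA polymerase II, had 237, 233, 243 and 247 CPM against 273, 271 and 263 CPM. In both, replicates were tight and the gap was small, with log2 changes of -0.18 ± 0.04 and -0.16 ± 0.04 (SE).

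Of the 12 higher genes chosen in the same way, 0 were in the ATF4 lists. Since the lists hold 95 of 18526 tested genes, and not Atf4 itself, most sets of 12 genes would give 0. After Atf4 came Fras1, an extracellular matrix protein, at 285, 302, 307 and 291 CPM against 243, 269 and 261 CPM. Gabarapl2, an ATG8 protein of autophagosomes, had 32.3, 38.9, 35.6 and 31.9 CPM against 27, 29.7 and 27.8 CPM (log2 change 0.30 ± 0.08, SE). Cdkn1a, the p53-induced inhibitor p21 of the cell cycle, had 24.1, 25.3, 28.7 and 22.7 CPM against 18.9, 20.7 and 21.3 CPM (log2 change 0.31 ± 0.09, SE). In each of the 3, the gap between the lowest knockout and the highest control was narrower than the range among the knockouts. Stab1, a scavenger receptor, had 136, 146, 155 and 152 CPM against 134, 132 and 123 CPM. The 7 others were Anapc16, Fam72a, Vps28, Slc24a4, Trp53inp1, Rhbdd2 and Rapgef6, with log2 changes from 0.15 ± 0.05 in Rapgef6 to 0.46 ± 0.14 (SE) in Fam72a. The p53 targets as a list had 16 of 30 members negative and a median of -0.01. Groups were apart, higher, in Cdkn1a and Trp53inp1 and, lower, in Gadd45a.

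**Figure D3:**
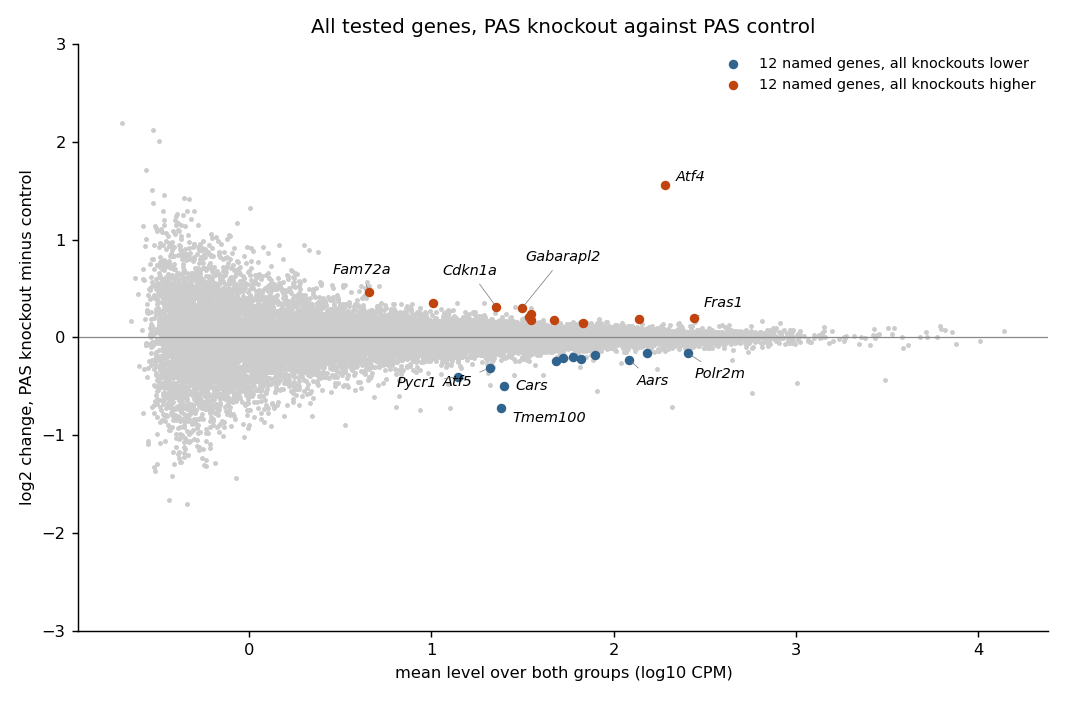
Log2 change (PAS knockout minus PAS control) of all 18526 tested genes against their mean level (log10 CPM). Blue and orange points are the 12 lower and 12 higher genes chosen by rank of p with groups apart, the gray ones all others. Atf4, at 1.56, is the 1 gene past the threshold.

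Genes next to Atf4 were examined because a lost signal can let transcription run on. Of 36 annotated genes within 250 kb, 11 were tested, and among the 10 other than Atf4, 0 passed and 0 had groups apart. Rps19bp1, which starts beyond the end of Atf4 and is transcribed towards it, had 16.1, 16.1, 15.5 and 12.4 CPM in the knockouts against 14.5, 13.4 and 13.9 CPM in the controls, and knockout 4 lay below all controls. Mief1, a mitochondrial fission adaptor that lies upstream on the same strand as Atf4, had a log2 change of -0.07 ± 0.06 (SE). Tab1, a TAK1 binding protein, had 0.12 ± 0.06, Rpl3, a ribosomal protein, 0.03 ± 0.05, Syngr1, a vesicle protein, -0.16 ± 0.19, Mgat3, a glycosyltransferase, -0.02 ± 0.14 and Pdgfb, a growth factor, 0.04 ± 0.35 (log2 changes with SE). The downstream calcium channel gene Cacna1i had too few counts to be tested in the PAS line, at most 0.103 CPM in any of the 7 libraries. Counts per gene do not cover the DNA between genes, so read-through past the end of Atf4 was not measured.

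Protein folding genes of the endoplasmic reticulum had 16 of 20 members negative, a median of -0.04 and groups apart in 0. Hspa5, which codes for the chaperone BiP, had a log2 change of -0.06 ± 0.08 and Calr, calreticulin, of -0.06 ± 0.08 (SE). Mitosis genes had 2 of 24 negative and a median of 0.04, with groups apart, higher, in the kinesin Kif20a (log2 change 0.09 ± 0.05, SE). DNA replication genes had 12 of 24 negative, with groups apart, lower, in Gins1 and Mcm6 and, higher, in Mcm7. Mcm6 and Mcm7, of the same helicase ring, had log2 changes of -0.06 ± 0.04 and 0.06 ± 0.04 (SE). Gins1, of the replicative helicase, had 14.9, 15, 16 and 14.7 CPM against 19.3, 18.4 and 16.9 CPM. Ribosome biogenesis had 18 of 30 negative, with Gar1 and Ltv1 lower in all knockouts and Grwd1 and Utp20 higher. Gar1, of the pseudouridylation particles, had the largest of the 4 log2 changes, -0.27 ± 0.08 (SE), or -0.17 without control 2, the highest library at 24.9 CPM. Antioxidant genes of the NRF2 type had 15 of 20 negative and groups apart in Me1, malic enzyme, at 56, 53.1, 58.3 and 56.6 CPM against 65.4, 64.4 and 60.4 CPM. Glycolysis and hypoxia genes had 19 of 27 negative, with groups apart in Adm, adrenomedullin. Nuclear oxidative phosphorylation genes had 17 of 37 negative, with groups apart in Atp5d. Over all tested genes 2.31% were lower and 2.21% higher in all knockouts. A lone member apart in lists of this size is little beyond those shares.

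Heart muscle genes showed small differences. Of 26 sarcomere genes 16 were negative, with a median of -0.01 and groups apart in 0. Actc1, cardiac actin, had 10417, 9720, 10274 and 9984 CPM in the knockouts against 10609, 10720 and 9775 CPM in the controls, and Myh7 had a log2 change of 0.08 ± 0.06 (SE). Calcium handling genes had 9 of 19 tested members negative and groups apart in Jph2, junctophilin, which holds the junction between surface and calcium store. Jph2 had 315, 328, 328 and 305 CPM against 340, 353 and 342 CPM. Since 2.31% of all tested genes were lower in all knockouts, a lone such gene in this list is little beyond that share. Trabecular markers, of the inner muscle layer, had 6 of 13 negative, and compact layer markers, of the outer wall, 8 of 14, both with groups apart in 0. Nppa and Gja1, trabecular genes, had log2 changes of 0.04 ± 0.14 and 0.04 ± 0.11 (SE), and Ccnd2 and Tead1, of the compact layer list, -0.11 ± 0.08 and -0.02 ± 0.07 (SE). Cardiac transcription factors had 11 of 21 tested members negative and atrial markers 6 of 10, with groups apart in 0.

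Libraries within a group differed along a shared direction, which held 53.6% of the variation within groups over 10440 genes. Knockout 2 and control 3 scored 0.554 and 0.55 on it, and control 2 and knockout 1 scored -0.495 and -0.297. Casq2, calsequestrin of the calcium store, had 196 CPM in knockout 2 and 160 CPM in control 3, but at most 83.1 CPM in the others. Hapln1, a matrix link protein, had 118 and 172 CPM there, against 263 CPM or more in the others. With both libraries left out together, edgeR again called Atf4 alone, and Cars kept a negative value in every setting run, from -0.56 to -0.43. With this direction as a covariate, edgeR called Atf4 and the lower genes Cars and Aars. The direction was derived from the deviations of these same libraries from their group means. Smaller p values can follow from that alone, so these calls are no separate check. Red cell genes differed in level as well. Of 16 erythroid genes 15 were negative, with a median log2 change of -0.47 and groups apart in 0. The summed erythroid level was 1418 to 2638 CPM in the knockouts and 1606 to 3964 CPM in the controls. That list median was -0.11 without control 1, -0.88 without knockout 2 and control 3, and 0.01 with summed globin as a covariate. Globins are themselves red cell genes, so the last value is no separate check of this list. EdgeR called Atf4 alone both with that covariate and with haemoglobin and mitochondrial genes removed.

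**Figure D4:**
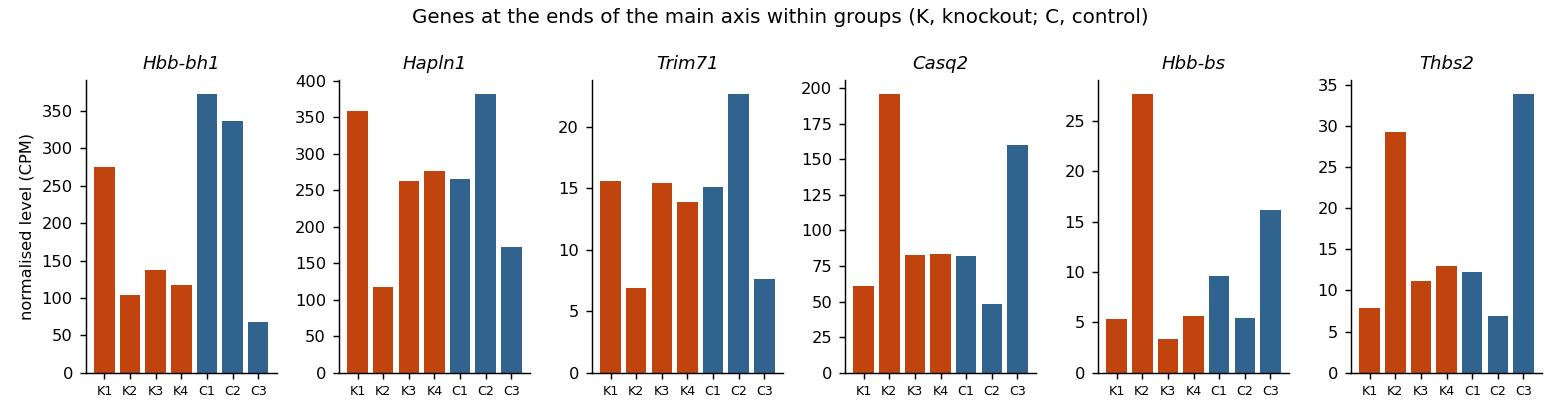
Normalised level (CPM, linear axes from 0) of 6 genes at the ends of the main direction of variation within groups, by library, with knockouts K1 to K4 in orange and controls C1 to C3 in blue. K2 and C3 are high in Casq2, Hbb-bs and Thbs2 and low in Hapln1 and Trim71, across the group labels.

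Of the marker lists for other cells, the endothelial and endocardial list held Cdh5 and Npr3, with log2 changes of 0.08 ± 0.06 and 0.05 ± 0.06 (SE). Epicardial markers had 6 of 13 negative, cushion and mesenchymal markers 13 of 16, macrophage and leukocyte genes 11 of 14 tested, liver and choroid plexus markers 3 of 6, and skeletal and smooth muscle markers 4 of 4, with groups apart in 0 of each. Neuronal markers had 7 of 11 tested members negative, with groups apart in Slc17a7, at most 0.747 CPM. Groups were also apart in 0 of the mitochondrial genome protein genes (5 of 11 tested negative), the mitochondrial chaperones and proteases (5 of 15), the cholesterol and fatty acid genes (16 of 22), the immediate early genes (8 of 14) and the mTORC1 and nutrient sensing genes (11 of 25).

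The CDS line offers values from libraries that share no sample with the PAS comparison. There, Atf4 went the other way. The CDS knockouts had 44.5 ± 3.52 CPM and their controls 114 ± 1.93 CPM (SD, n = 4 each), a log2 change of -1.36 ± 0.05 (SE). The difference between the PAS and the CDS change in log2 was 2.92 ± 0.08 (SE), with an adjusted p of 3.88e-17 in edgeR's test of the difference. Atf4 was the only gene of 20269 to pass that test (0.00493%). The CDS comparison called 12 of its 19345 tested genes (0.062%), 2 higher (0.0103%) and 10 lower (0.0517%). The 2 higher ones were the gene model 1810010H24Rik and Cacna1i, whose level was 6.61 ± 0.566 CPM with the CDS knockout label against 0.031 ± 0.0264 CPM with the control label (SD, n = 4 each; edgeR adjusted p = 1.6e-11). DESeq2 called 9 higher and 18 lower, and edgeR called 6 lower without CDS knockout 2. The numbers of calls in the 2 lines are not a like comparison. CDS libraries had 30376847 to 46472141 counts and PAS libraries 22623499 to 29315724. The biological coefficient of variation was 6.5% in the CDS fit, of 4 against 4 libraries, and 8.64% in the PAS fit, of 4 against 3. Of the 9 lower genes besides Atf4 that edgeR called in the CDS line, 8 were negative in the PAS line as well, against 50.4% of all genes. All PAS knockouts were lower in 7 of the 9, against 2.31% of all genes. Their median log2 change was -0.20 in the PAS line and -0.33 in the CDS line, and 0 passed the test of the difference. The 9 were chosen by their CDS values, so PAS values nearer to 0 can follow from that choice alone.

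Gene by gene, Cars had a log2 change of -0.50 ± 0.08 in the PAS line and -0.46 ± 0.05 in the CDS line (SE), a difference of -0.04 ± 0.09. Aars had -0.23 ± 0.05 and -0.28 ± 0.04, a difference of 0.05 ± 0.07. Pycr1 had -0.40 ± 0.11 and -0.39 ± 0.07. In these genes the 2 lines were within 1 SE of each other. Iars, Phgdh and Aldh18a1, the last of which opens proline synthesis, were nearer to 0 in the PAS line, with differences of 0.17 ± 0.05, 0.11 ± 0.07 and 0.10 ± 0.08 (adjusted p = 0.995 in edgeR's test for each). Yars and Nars had differences of 0.07 ± 0.06 and 0.09 ± 0.06. The exception among the 9 was Rps19bp1, with 0.11 ± 0.10 in the PAS line and -0.62 ± 0.07 in the CDS line, a difference of 0.73 ± 0.13 (edgeR adjusted p = 0.077, DESeq2 adjusted p = 0.00179). Without CDS knockout 4 the adjusted p of Rps19bp1 was 0.0327, and without PAS knockout 4 it was 0.00455. The gene model 1810010H24Rik was higher in the knockouts of both lines, with log2 changes of 0.89 ± 0.22 and 1.27 ± 0.15 (SE). It had 3.36, 2.75, 2.89 and 2.16 CPM in PAS knockouts and 1.48, 1.75 and 1.28 CPM in PAS controls.

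All 5 stress outputs with groups apart in the PAS line had values nearer to 0 or above it in the CDS line. They were chosen by their PAS values, so CDS values nearer to 0 can follow from that choice alone. Gadd45a had log2 changes of -0.69 ± 0.22 and 0.19 ± 0.21 (SE), a difference of -0.87 ± 0.30. Jdp2 had -0.35 ± 0.11 and -0.08 ± 0.07, a difference of -0.27 ± 0.12. Atf5 and Ddit3, at -0.12 ± 0.06 and -0.08 ± 0.07 in the CDS line, had differences of -0.18 ± 0.10 and -0.20 ± 0.12. Xpot had -0.08 ± 0.04 and -0.04 ± 0.03, a difference of -0.04 ± 0.05. None of these 5 differences passed edgeR's test (adjusted p = 0.995 for each).

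Tmem100 and Gabarapl2 were among the genes whose values in the PAS line had little counterpart in the CDS line. Tmem100 had a log2 change of -0.05 ± 0.07 there, a difference of -0.67 ± 0.16. Gabarapl2 had -0.02 ± 0.09, a difference of 0.32 ± 0.12 (edgeR adjusted p = 0.995 for both). With no filter on low counts, edgeR's adjusted p for the Tmem100 difference was 1.06e-06, with an SE of 0.1 in place of 0.16. Vps28, Fam72a and Stab1 had differences of 0.37 ± 0.09, 0.54 ± 0.16 and 0.24 ± 0.07 (edgeR adjusted p = 0.995 for each). Tmem100 levels in CDS knockouts and CDS controls, 17.1 ± 1.29 and 17.8 ± 1.22 CPM (SD, n = 4 each), were near the 18.3 CPM of the PAS knockouts and below the 30.1 CPM of the PAS controls. The lines were scaled separately for these levels. Cdkn1a had 0.31 ± 0.09 in the PAS line and 0.41 ± 0.08 in the CDS line, a difference of -0.10 ± 0.12 (SE).

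**Figure D5:**
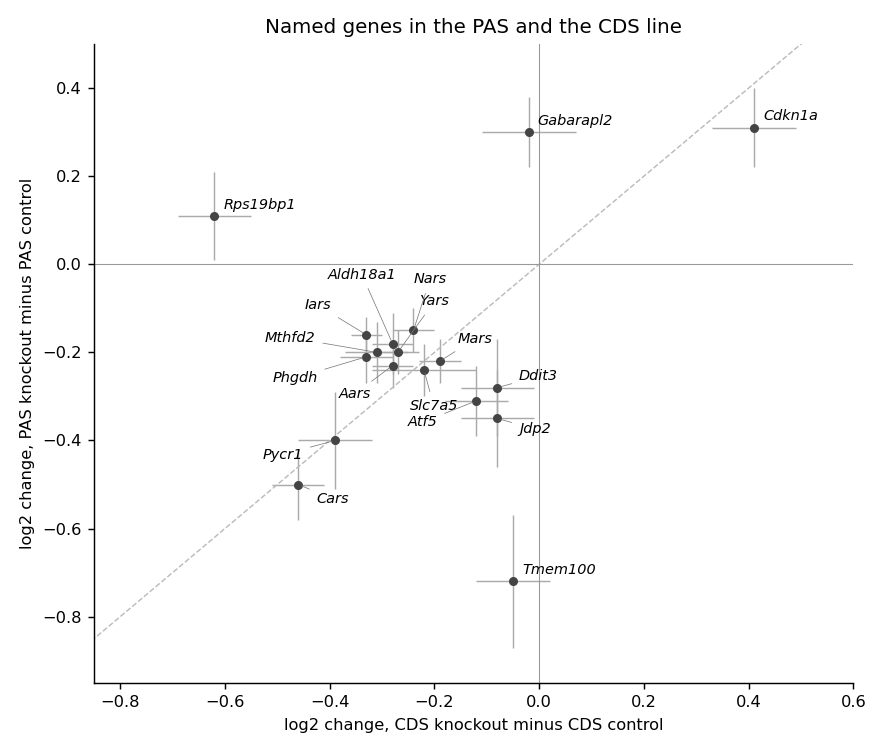
Log2 change in the PAS line (vertical) against the CDS line (horizontal) for 18 named genes, with SE bars and the line of equal change dashed. Synthetases and amino acid enzymes lie in the lower left, Tmem100 is lowest on the vertical axis and near 0 on the horizontal, and Rps19bp1 is lowest on the horizontal axis. Atf4, at 1.56 and -1.36, is beyond the axes and not drawn.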

How the data were processed

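RNA-seq counts of 15 ventricle libraries were used, 7 of them for the main comparison. Values in the deposited tables are unnormalised counts of fragments over the exons of each gene. Per the file headers, featureCounts 2.1.1 counted read pairs against GENCODE M37 (GRCm39) with no strand option. Reads of a gene and an overlapping antisense partner, or of near-identical copies, therefore cannot be told apart. Also named in the submitters' processing notes, without roles, are STAR 2.7.11b, HISAT2 2.2.1, fastp, FastQC and DESeq2. The design text calls replicates biological. Names came by identifier from GENCODE M21, which gave 51487 of 78317 genes a name and covered 98.85% of counts.

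Genes were kept by filterByExpr (minimum count 10), scaled by TMM and tested with edgeR 4.0.16 (quasi-likelihood, robust) in R 4.3.3, with Benjamini-Hochberg adjustment over all tested genes and a threshold of 0.05. The PAS fit had 18526 genes, 5 residual degrees of freedom and a biological coefficient of variation of 8.64%. CPM are normalised counts, and standard errors derive from the F statistic. The difference between lines was a contrast in 1 fit of 15 libraries. The fit was also run on simulated counts with known changes. Those counts had 1 coefficient of variation for all genes and no shared direction within groups. They therefore do not show how the test behaves in these libraries. No replicate pair was within sampling noise (chi-square per degree of freedom 4.17 to 12.1), so none was merged. Precision rests on 22623499 to 29315724 counts per library.

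Named were Atf4 and tested genes within 250 kb, called genes, the 12 higher and 12 lower genes with the smallest p, at least 5 CPM and groups apart, up to 6 such members of each of 40 lists (or the 2 most abundant, left out for lists given by counts alone) and genes called in the CDS line. Gene models without a name were left out. The comparison, the lists and their members were chosen with earlier results of these data known. Alternatives were DESeq2 1.42.0, limma-voom 3.58.1, DESeq2 size factors, no filter, all 15 libraries, a replicate block, haemoglobin and mitochondrial genes removed and each library left out. A covariate for the main direction within groups, one for summed globin, and leaving out knockout 2 and control 3 together were added after seeing the data. Some promoter sequence is not reported here.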

Additional observations from a re-analysis of the deposited data

Results flagged for a closer look

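Atf4 differed between the lines: the PAS change minus the CDS change was 2.92 on the log2 scale (adjusted p = 3.88e-17, edgeR's test of the difference), higher in 4 of 4 PAS knockouts and lower in 4 of 4 CDS knockouts. Among the 4 PAS knockouts, 1 library stood apart from the other 3, by a gap larger than the 95% limit of Dixon's test, in 5 of the 78 named genes looked at. Chance flags about 1 in 20 groups, so this count is near what chance gives. Knockout 1 was apart in Anapc16 (39 CPM), Grwd1 (34.7 CPM) and Hba-x (744 CPM). Knockout 2 was apart in Pdgfb, at 10 CPM against 4.98 to 5.37 CPM. Knockout 4 was apart in Rps19bp1, at 12.4 CPM.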

How the results depend on the processing

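Atf4 passed the threshold in all 17 other settings run for the PAS line, with a log2 change between 1.52 and 1.60. The number of lower genes called, 0 by edgeR in the 7 libraries, was 2 with DESeq2 (Cars, Tmem100), 1 with all 15 libraries in the fit (Cars), 2 with the direction within groups as a covariate (Cars, Aars) and 3 with no filter on low counts (Tmem100, Cars and the Y-linked Eif2s3y). The direction within groups was derived from the same libraries, so calls made with it are no separate check. Leaving out each PAS library in turn gave 0 lower and 1 higher in every case. The difference between lines was called for 2 higher genes, Atf4 and Rps19bp1, with DESeq2, with no filter, without CDS knockout 4 and without PAS knockout 4, and for 1 lower gene with no filter (Tmem100) and with limma-voom (Cacna1i). Over the libraries left out it was 1 to 2 higher. In the CDS line, DESeq2 called 9 higher and 18 lower, and leaving out a library gave 2 to 3 higher and 6 to 11 lower.

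With the replicate number as a block, edgeR called Atf4 alone, at a log2 change of 1.60. Replicate numbers do not pair the samples, since same-numbered knockouts and controls had correlations of 0.0938, -0.639 and -0.336 in their deviations from the group means.

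Signs of genes near 0 turned. With the block Mgat3 had 0.01. With globin as a covariate Mgat3 had 0.02, Ddx3y -0.00 and Hba-x, itself part of that covariate, 0.11, from -0.57. Without knockout 2 and control 3 together, Nppa had -0.06 and Rpl3 -0.02. Over single libraries left out, log2 changes ran from -0.13 to 0.00 for Calr, -0.18 to 0.00 for Ccnd2, -0.05 to 0.11 for Gja1, -0.29 to 0.04 for Lars2, -0.15 to 0.12 for Mgat3, -0.05 to 0.16 for Nppa, -0.02 to 0.12 for Npr3, -0.27 to 0.40 for Pdgfb, -0.02 to 0.08 for Rpl3, -0.07 to 0.04 for Tead1, -0.03 to 0.12 for Ddx3y and -0.09 to 0.02 for the Cars difference between lines. The cause was not tested. Low counts limit Chac1, Gadd45a and Trib3.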
